A study of Mus musculus with 6 samples.

Results

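The 10 genes examined here carry out or control the uptake and burning of fatty acids in endothelium, and were taken by name from the 23337 genes of the deposited expression table. They are Fabp4 and Fabp5, Slc27a3 and Slc27a4, Acsl1, Cpt1a, Acadl, Pparg, Meox2 and Tcf15. All 10 were found, and 9 of them, all but Meox2, reached at least 1 RPKM (reads per kilobase of gene, scaled to library size) in at least 3 of the 6 libraries and were tested. RNA-seq had been made from cells that carried CD31 and lacked CD45, sorted from collagenase-digested mouse spleens and labelled blood endothelial cells. The 3 wild-type libraries (WT 1, WT 3 and WT 4) and the 3 Stab1-/- knockout libraries (KO 2, KO 3 and KO 4) were all labelled C57BL/6, with no treatment, age or sex given in the labels used here. Where 3 values are given for a genotype, they follow that order of libraries. Stab1 encodes stabilin-1 (Clever-1), a scavenger receptor of sinusoidal endothelium, and the study asked how it bears on contacts between spleen vessels and lymphocytes. The labels do not say whether each library came from its own mouse, and the p-values therefore reflect the scatter among these libraries alone.

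Fatty acids reach tissues through endothelial cells. Lipoprotein lipase held at the vessel wall by Gpihbp1 frees them from lipoproteins, and Cd36 and the fatty acid transport proteins of the Slc27 family help them into the cell. Binding proteins of the Fabp family carry them inside, acyl-CoA synthetases such as Acsl1 activate them, and carnitine palmitoyltransferases such as Cpt1a bring them into mitochondria, where acyl-CoA dehydrogenases such as Acadl start each round of beta-oxidation. Pparg, a lipid-sensing nuclear receptor, and the heart capillary transcription factors Meox2 and Tcf15, which act as a pair, are known to drive genes of this route in endothelium.

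Each library held 40415862 to 51675125 reads counted to genes, recovered from the deposited RPKM values. Stab1 itself was at 21.6 to 43.6 RPKM in wild type and at 2.32 to 2.62 in knockout (log2 fold change -3.40 ± 0.22 SE, adjusted p = 7.15e-05). All 10 endothelial markers examined were expressed, with Egfl7 at 838 to 1053 RPKM, Pecam1 (CD31) at 273 to 359.8 and Cdh5 at 79.1 to 107, and none of the 10 passed the test. Fabp4 and Pparg also mark fat cells, so adipocyte markers were read in the same libraries. Of the 10 adipocyte markers, 8 stayed under 1 RPKM in every library. Plin1, Lep, Cidec, Cfd and Pck1 were listed at 0 in every library, and Adipoq reached at most 0.0816 RPKM. The 2 others were high enough to be tested, and 0 passed. The 10 summed to 4.71 to 6.28 RPKM in wild type and 4.99 to 5.63 in knockout.

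The members spanned a wide range of levels. Over the 6 libraries, mean levels were 253 RPKM for Fabp5, 137 for Fabp4, 108 for Acadl, 60.4 for Slc27a3, 51.3 for Cpt1a, 7.85 for Slc27a4, 2.54 for Acsl1, 2.39 for Tcf15, 1.94 for Pparg and 0.365 for Meox2. Fabp5 stood above Fabp4 in 6 of 6 libraries with no overlap of their ranges, and Acadl above Slc27a3, Cpt1a above Slc27a4, Slc27a4 above Acsl1 and Pparg above Meox2 likewise. Neighbours whose ranges overlapped were Fabp4 and Acadl, Slc27a3 and Cpt1a, Acsl1 and Tcf15, and Tcf15 and Pparg. Among the tested genes of wild-type cells, Fabp5 ranked at the 97.6th percentile of level, Fabp4 at the 95.2nd and Acadl at the 93.3rd, whereas Pparg ranked at the 8.7th and Tcf15 at the 9.5th.

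**Figure D1:**
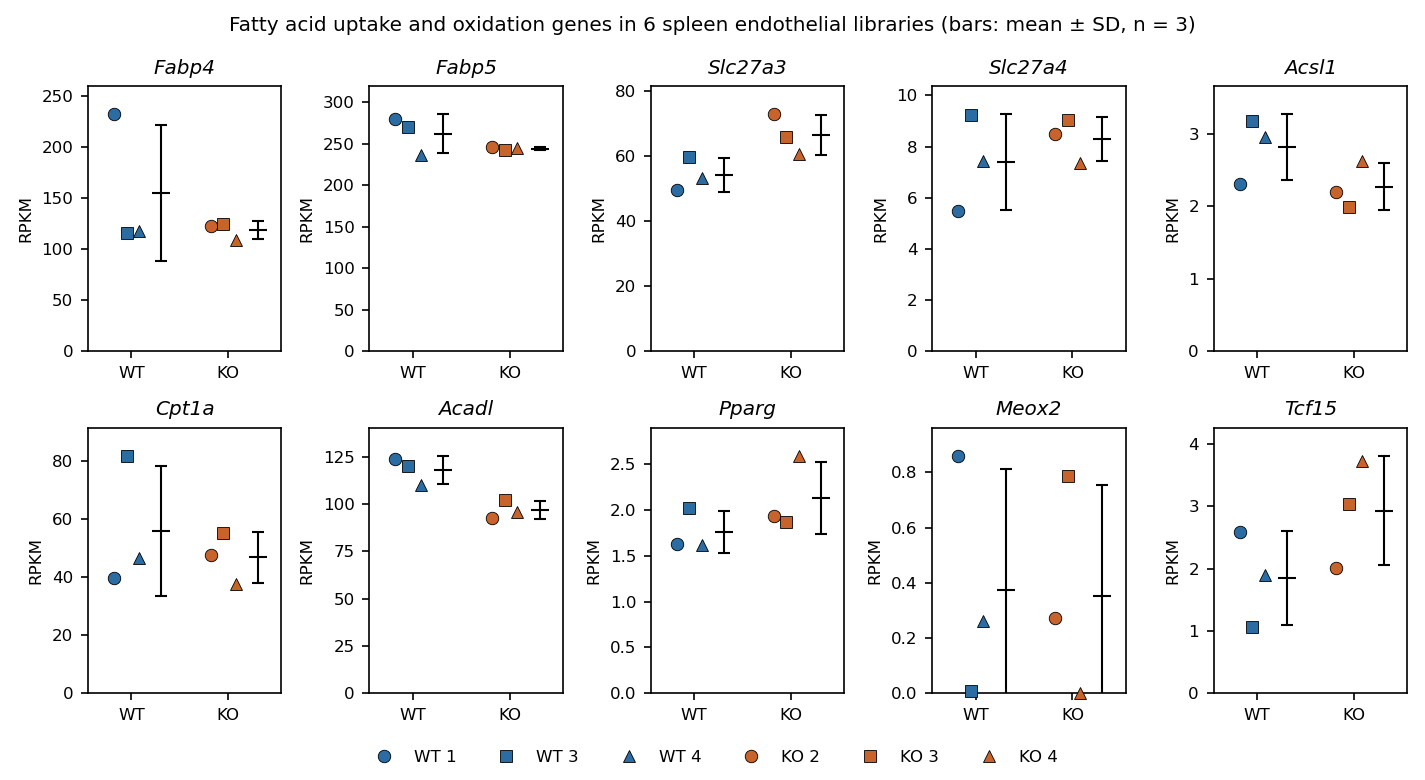
RPKM of the 10 genes in each library (y axes from 0, wild type and knockout on the x axes), with the mean ± SD of 3 libraries beside the points. WT 1 alone is high for Fabp4 (232 RPKM) and WT 3 alone for Cpt1a (81.4), and Acadl and Slc27a3 are the members whose groups do not overlap; the lower SD bars of Meox2 are cut off at 0.

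Between the genotypes, no member passed the test fitted across all genes. Of the 9 tested, 0 passed an adjusted p of 0.05 in limma, and 0 in voom on the recovered reads. Over all 11035 genes tested, 1.94% passed in limma (0.671% higher and 1.27% lower in knockout) and 2.0% in voom. In bulk samples such as these, fewer cells of a type and less RNA per cell cannot be told apart. At an unadjusted p under 0.05 there were 2 members, Acadl (lower in knockout) and Slc27a3 (higher), against 15.7% of all genes. The groups did not overlap for these 2 alone, where 9.57% of all genes were lower and 10.7% higher in knockout without overlap. The median log2 fold change of the 9 was -0.098, beside 0.026 over all genes, and 4 of the 9 were positive, beside 54.3% of all genes. With 3 libraries a group the fit recovered 24% of genes changed 1.5-fold and 70% of those changed 2-fold in simulated data, so a missed threshold does not show that levels were equal. An exact permutation of 3 against 3 libraries cannot go below a two-sided p of 0.1, and was not used.

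**Figure D2:**
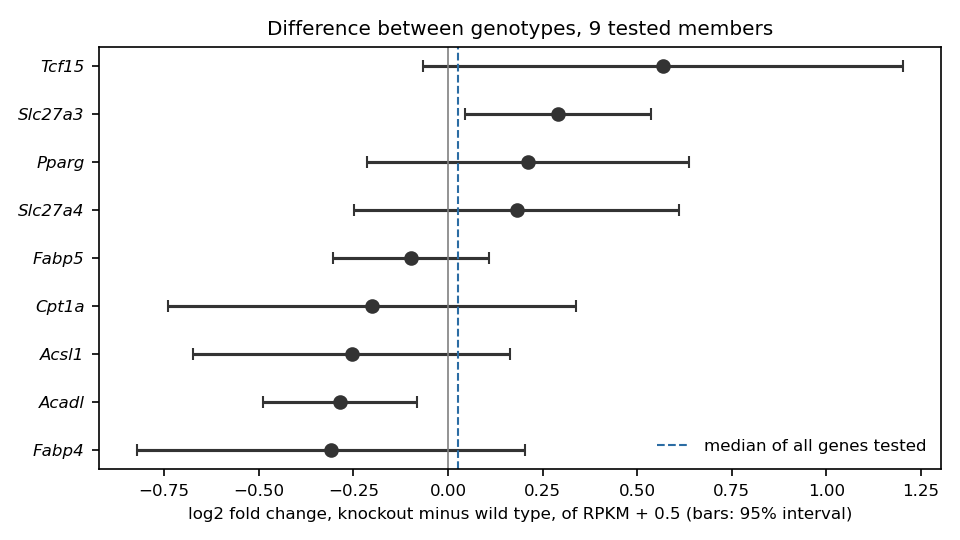
Log2 fold change (knockout minus wild type, on log2 of RPKM + 0.5) of the 9 tested members, with 95% intervals from limma and the median of all genes tested as a dashed line. Only the unadjusted intervals of Slc27a3 (0.045 to 0.537) and Acadl (-0.489 to -0.083) leave out 0, and neither gene passed after adjustment over all genes.

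The intracellular carriers were the most abundant members. Fabp5 (gene ID 16592, chromosome 3, 10012585 to 10016610, GRCm38), the epidermal-type fatty acid binding protein, was at 279.9, 270.5 and 236 RPKM in wild type against 246, 242 and 245 in knockout. The knockout values lay inside the wild-type range and close together, at 244 ± 1.88 (SD, n = 3) against 262 ± 23.1. The log2 fold change was -0.098 ± 0.09 (SE), with a 95% interval of the fold from 0.81 to 1.08 and an adjusted p of 0.621. A processed copy of Fabp5, Fabp5l2, is annotated elsewhere in the genome, so how the authors' counting placed shared reads bears on its level.

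Fabp4 (gene ID 11770, chromosome 3, 10204342 to 10208616), the adipocyte-type binding protein that is also made by capillary endothelium, was at 232, 116 and 118 RPKM in wild type against 123, 125 and 109 in knockout. WT 1 stood apart, and the other 5 libraries lay between 109 and 125. Means were 155 ± 66.4 and 119 ± 8.54 RPKM (SD, n = 3). The log2 fold change was -0.31 ± 0.23 (SE, adjusted p = 0.53), and without WT 1 it was 0.019 (adjusted p = 0.943). Counting error was small beside this gap, with 6200 reads on the gene in WT 1 and 2853 to 4067 in the others. In WT 1 the 10 reticular and fibroblast markers also summed to 287 RPKM, against 69 to 115 in the other libraries, and Dcn, the decorin gene of fibroblasts, was at 96.1 RPKM against 3.68 to 33.1. The list did not move as a whole, since Pdgfrb was at 1.98 RPKM in WT 1 against 2.75 to 4.69 in the others and Pdgfra at 0.498 against 0.416 to 0.605. Its 1 called gene, Cxcl13, a chemokine of B cell follicles, was lower in knockout (adjusted p = 0.00159). The part of these markers in the Fabp4 value was not tested. The ratio of Fabp5 to Fabp4 was 1.21 in WT 1 and 1.94 to 2.34 in the other 5 libraries.

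The other binding proteins were low. Fabp3, the heart type, was at 0.787 to 1.84 RPKM over the 6 libraries and Fabp7, the brain type, at 0.49 to 2.9, while Fabp2 was listed at 0 in every library and Fabp1 in every library but WT 1 (0.780). Fabp7 was lower in each knockout library (1.07 ± 0.545) than in any wild-type one (2.35 ± 0.487), with an adjusted p of 0.155.

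Both transport protein genes were expressed, Slc27a3 far above Slc27a4. Slc27a3 (gene ID 26568, chromosome 3, 90385230 to 90390835), which encodes the acyl-CoA synthetase and transport protein FATP3, was at 49.6, 59.8 and 53.4 RPKM in wild type against 72.9, 66.0 and 60.7 in knockout. Every knockout value was above every wild-type value, though KO 4 and WT 3 were close. Means were 54.3 ± 5.17 and 66.5 ± 6.11, the log2 fold change was 0.29 ± 0.11 (SE), the 95% interval of the fold ran from 1.03 to 1.45, and the adjusted p was 0.246. Slc27a3 passed under 1 of 17 alternatives, library quality weights (adjusted p = 0.00526), under which 33.1% of all genes passed.

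Slc27a4 (gene ID 26569, chromosome 2, 29802634 to 29817522), which encodes FATP4, was at 5.49, 9.24 and 7.44 RPKM in the wild-type libraries and at 8.49, 9.06 and 7.36 in the knockout ones. The groups overlapped, with WT 1 the lowest library (log2 fold change 0.18 ± 0.19 SE, adjusted p = 0.663, and -0.004 without WT 1). Slc27a3 was 6.48 to 9.04 times as high as Slc27a4 within a library. Their relative Slc27a1 (FATP1), which is no member, came second in the family at 31.5 to 56.0 RPKM, below Slc27a3 in 6 of 6 libraries, with 39.7 ± 7.12 in wild type against 50.8 ± 6.0 in knockout (adjusted p = 0.28). Slc27a2, Slc27a5 and Slc27a6 were under 0.2 RPKM everywhere. Vegfb, the ligand gene known to raise endothelial FATP3 and FATP4 in other settings, was at 25.4 ± 4.29 in wild type against 24.8 ± 1.57 in knockout (adjusted p = 0.957).

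Upstream of these carriers, the uptake genes Cd36 and Gpihbp1 were higher than any member. Cd36, the scavenger receptor and fatty acid translocase, was at 915, 1219 and 1252 RPKM in wild type against 762, 621 and 991 in knockout. The groups overlapped through KO 4 and WT 1, and the gene did not pass (log2 fold change -0.52 ± 0.18 SE, adjusted p = 0.2). It passed with library quality weights alone of the 17 alternatives (0.00203), under which 33.1% of all genes passed. Gpihbp1, the capillary anchor of lipoprotein lipase, was at 740.4 ± 111 and 794 ± 50.8 (adjusted p = 0.681), while Lpl, the lipase itself, was at 4.82 ± 2.11 and 3.63 ± 0.895 (0.632), so Gpihbp1 was 89 to 304 times as high as Lpl within a library. Platelets also carry Cd36. In the same libraries the 10 megakaryocyte and platelet markers summed to 130.1, 258 and 90.4 RPKM in wild type and 59.6, 65.8 and 77.5 in knockout. Pf4 was the 1 called gene (lower). Within wild type the sums did not follow Cd36, since WT 4 had the lowest sum and the highest Cd36. The part of these markers in the Cd36 values was not tested. Of 19 genes of uptake and intracellular carriage, 12 were tested and 0 passed. At an unadjusted p under 0.05 there were 5 (2 higher and 3 lower), or 41.7% of the 12, beside 15.7% of all genes. Among them was Acbd5, an acyl-CoA binding protein of peroxisomes, at 13.1 ± 0.206 and 8.27 ± 3.10 (adjusted p = 0.188). Its log2 fold change, -0.70, was -0.953 without KO 4, where it passed (adjusted p = 0.0349), and -0.431 without KO 3 (0.551).

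**Figure D3:**
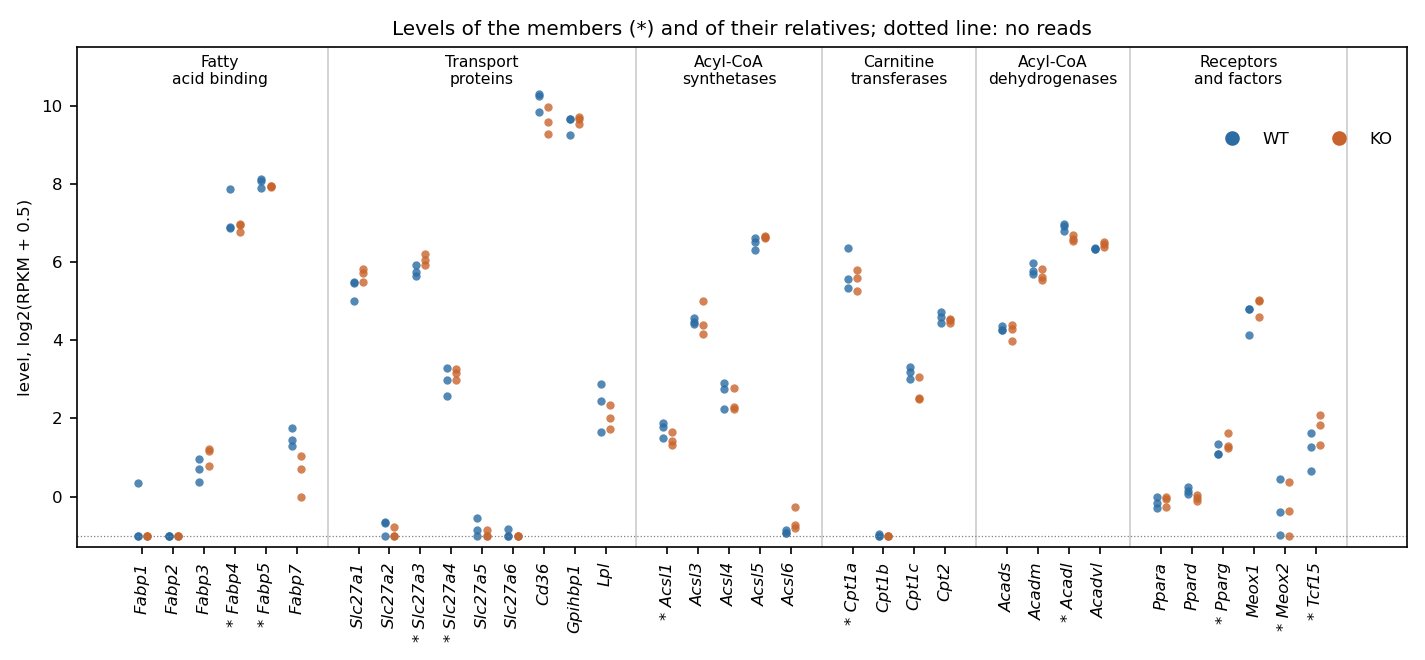
Level as log2 of RPKM + 0.5 (y axis) of the members, marked by asterisks, and of their relatives in 6 groups, with 1 point per library, wild type blue and knockout orange. Cd36 and Gpihbp1 lie at the top, and Slc27a3, Acsl5 and Cpt1a lead their families. Cpt1b and Fabp2 lie at or near the line that stands for no reads, and Meox2 runs from that line (KO 4) up to 0.858 RPKM (WT 1).

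Acsl1 was a minor acyl-CoA synthetase of these cells. Acsl1 (gene ID 14081, chromosome 8, 46471037 to 46536051), a long-chain acyl-CoA synthetase prominent in heart, fat and liver, was at 2.30, 3.17 and 2.95 RPKM in wild type against 2.19, 1.99 and 2.62 in knockout. The groups overlapped through WT 1, and the log2 fold change was -0.26 ± 0.19 (SE, adjusted p = 0.528). Acsl5, another member of its family, was at 79.3 to 101 RPKM and was 30.9 to 49.0 times as high as Acsl1 within a library. Acsl3 was at 17.3 to 31.3, Acsl4 at 4.2 to 6.94 and Acsl6 under 0.4 RPKM. Of 15 genes that make or split acyl-CoA, 12 were tested and 0 passed (1 at an unadjusted p under 0.05). That was Acot13, a thioesterase gene, at 49.7 ± 9.73 in wild type against 39.5 ± 0.911 in knockout (adjusted p = 0.302), and Acot7, the next by p, was at 12.3 ± 2.01 and 16.0 ± 3.83 (0.372).

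Cpt1a was the leading carnitine palmitoyltransferase of the outer mitochondrial membrane. Cpt1a (gene ID 12894, chromosome 19, 3322326 to 3385735) was at 39.8, 81.4 and 46.5 RPKM in wild type against 47.4, 55.2 and 37.7 in knockout. WT 3 was the highest library, and the other 5 lay between 37.7 and 55.2. Means were 55.9 ± 22.3 and 46.8 ± 8.75 RPKM (SD, n = 3). The log2 fold change was -0.20 ± 0.24 (SE, adjusted p = 0.703, 95% interval of the fold 0.60 to 1.26), and it was 0.103 without WT 3. WT 3 had 17704 reads on the gene and the others 6628 to 12070. It was also the library with the highest sum of megakaryocyte and platelet markers (258 RPKM). WT 1, the next by that sum (130.1 RPKM), was among the lowest for Cpt1a (39.8). The part of these markers in the Cpt1a values was not tested. A long non-coding RNA gene is annotated over 4622 bases of the Cpt1a locus, and the library kits that the labels name do not mark strand. Another such gene covers 14 bases of the Acsl1 locus.

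Within the carnitine shuttle, Cpt1b, the muscle form, had reads in WT 4 alone (0.0151 RPKM), and Cpt1c, the brain form, was at 8.54 ± 0.949 in wild type against 6.10 ± 1.56 in knockout (adjusted p = 0.261). With the shared column numbers as a block, the log2 fold change of Cpt1c was -0.741 in place of -0.47 and it passed (0.0342). The genotype difference in that fit rests on WT 3, WT 4, KO 3 and KO 4 alone, with almost no scatter left to measure. Cpt2, which acts on the inner membrane, was at 23.5 ± 2.27 and 22.1 ± 0.782 (0.737), and Cpt1a was 1.54 to 3.46 times as high. Slc25a20, the carnitine-acylcarnitine carrier, was at 47.3 to 48.8 in wild type and 36.4 to 44.5 in knockout, without overlap (0.334). Of 7 shuttle genes beside Cpt1a, 6 were tested and 0 passed, with 1, Cpt1c, at an unadjusted p under 0.05.

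Acadl had the smallest p of the members. Acadl (gene ID 11363, chromosome 1, 66830839 to 66863309), which encodes the long-chain acyl-CoA dehydrogenase of mitochondria, was at 124, 120.1 and 110.3 RPKM in wild type against 92.5, 102 and 96.1 in knockout. All 3 knockout libraries lay below all 3 wild-type libraries, and the spread within each group was small, at 118 ± 7.21 and 96.8 ± 4.70. The log2 fold change was -0.29 ± 0.09 (SE), with a 95% interval of the fold from 0.71 to 0.94, an unadjusted p of 0.0107 and an adjusted p of 0.174. Of 17 alternatives the gene passed with library quality weights alone (adjusted p = 0.0186), under which 33.1% of all genes passed. Its log2 fold change stayed between -0.344 and -0.217. The authors' deposited table gives it a log2 fold change of -0.287 and an adjusted p of 0.213. A pseudogene is annotated over 631 bases of the Acadl locus and a small nuclear RNA gene over 63. Their part in the Acadl values was not tested.

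The other acyl-CoA dehydrogenases named lay lower in abundance than Acadl, and neither passed the test. Acadvl, for very long chains, was at 80.4 ± 0.604 in wild type against 86.9 ± 4.08 in knockout (adjusted p = 0.55), and Acadm, for medium chains, at 55.9 ± 6.04 and 50.2 ± 5.22 (0.545). Acadl was above Acadvl in 6 of 6 libraries, by 1.02 to 1.54 times within a library. Of 24 genes of mitochondrial beta-oxidation beside Acadl, all 24 were tested and 0 passed. At an unadjusted p under 0.05 there were 3, with Echs1, the short-chain enoyl-CoA hydratase, at 102 ± 11.0 and 128 ± 6.02 (adjusted p = 0.155), and Etfa, a subunit of the flavoprotein that takes electrons from the dehydrogenases, at 86.8 ± 11.2 and 68.5 ± 8.02 (0.232). The median log2 fold change of the 24 was -0.029, beside 0.026 over all genes. In peroxisomes, 15 of 18 oxidation genes were tested and 0 passed (1 at an unadjusted p under 0.05), with Scp2, the sterol carrier and thiolase gene, at 21.3 ± 2.76 and 16.4 ± 2.59 (adjusted p = 0.263), and Ech1, a dienoyl-CoA isomerase also of mitochondria, at 304 ± 17.6 and 345 ± 27.5 (0.386).

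The 3 transcription factors among the members were low. Pparg (gene ID 19016, chromosome 6, 115360879 to 115490404) was at 1.63, 2.02 and 1.62 RPKM in wild type against 1.93, 1.87 and 2.58 in knockout, on 135 to 209 reads a library. The groups overlapped, with KO 4 the highest library (log2 fold change 0.21 ± 0.19 SE, adjusted p = 0.603). It was nonetheless the highest of the 3 PPAR genes, 3.28 to 6.42 times as high as Ppara (0.315 to 0.498 RPKM) and 2.65 to 5.47 times as high as Ppard (0.428 to 0.676), both too low to be tested. Of its partner genes, Rxra was at 6.55 ± 2.14 and 9.29 ± 1.71 (adjusted p = 0.321). Rxrb was higher, at 25.6 ± 3.83 and 30.2 ± 1.83 (0.385), and Rxrg was at most 0.325 RPKM. The coactivator genes Ppargc1a and Ppargc1b were at most 0.124 and 0.308 RPKM.

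Tcf15 (gene ID 21407, chromosome 2, 152143056 to 152149097), a basic helix-loop-helix factor, was at 2.58, 1.06 and 1.90 RPKM in wild type against 2.01, 3.04 and 3.73 in knockout. KO 3 and KO 4 were above every wild-type library, and KO 2 lay inside the wild-type range. The log2 fold change, 0.57 ± 0.28 (SE), was the most positive of the members, with a 95% interval of the fold from 0.96 to 2.30 and an adjusted p of 0.364. It rests on 50 to 144 reads a library, so that in WT 3 the exact Poisson 95% interval, which covers counting error only, runs from 0.788 to 1.40 RPKM. When the 2 numbers that columns of both genotypes carry were taken as a block, Tcf15 passed (log2 fold change 0.999, adjusted p = 0.0374). In that fit WT 1 and KO 2, the highest wild-type and the lowest knockout library for Tcf15, do not bear on the genotype difference. Almost no scatter of the gene's own is left to measure there, so its p-value leans on the spread shared across genes.

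Meox2 (gene ID 17286, chromosome 12, 37108540 to 37179534), a homeobox factor, was at 0.858, 0.00842 and 0.261 RPKM in wild type against 0.274, 0.788 and 0 in knockout. Both genotypes held libraries with reads and libraries with nearly none, from 94 reads in KO 3 and 84 in WT 1 down to 1 in WT 3 and 0 in KO 4. Markers of mesothelium, the covering of the spleen, summed to 14.1, 1.07 and 6.84 RPKM in wild type against 5.92, 4.18 and 1.91 in knockout, and their part in the Meox2 values was not tested. In KO 4 a count of 0 allows up to 0.0313 RPKM (3 reads). Its paralogue Meox1 was at 17.1 to 32.4 RPKM, above Meox2 in 6 of 6 libraries, with 23.8 ± 5.86 in wild type against 29.1 ± 4.83 in knockout (adjusted p = 0.473).

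Of 28 regulators listed beside the members, 22 were tested and 0 passed. At an unadjusted p under 0.05 there were 2 (9.09%, beside 15.7% of all genes). Both were lower in each knockout library than in any wild-type one, as were 9.57% of all genes. Tcf4, which encodes an E protein (the class of factor that pairs with basic helix-loop-helix factors such as Tcf15), was at 36.8, 33.4 and 37.6 RPKM in wild type against 23.4, 20.4 and 28.2 in knockout (log2 fold change -0.585 ± 0.13 SE, adjusted p = 0.0596). It passed with library quality weights (0.000802), with the shared column numbers as a block (0.0411) and without KO 4 (0.0237). Of all genes, 33.1%, 3.22% and 3.71% passed in those fits. Under the other alternatives the adjusted p of Tcf4 ran from 0.056 to 0.248, the highest without KO 3. The other E protein genes, Tcf3 (59.3 ± 11.8 and 58.0 ± 4.86) and Tcf12 (9.52 ± 1.43 and 9.71 ± 0.829), had adjusted p of 0.958 and 0.929. Ncor1, a corepressor of nuclear receptors, was at 12.5 ± 1.04 and 8.96 ± 1.49 (0.186).

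Among 20 genes known as PPAR targets in other tissues, 17 were tested and 0 passed, with 3 at an unadjusted p under 0.05, Cd36 among them. Angptl4, a lipase inhibitor gene, was at 108 ± 10.7 and 90.6 ± 15.4 (adjusted p = 0.387) and Pdk4, which diverts fuel use towards fat, at 15.7 ± 2.40 and 15.4 ± 1.67 (0.948). For lipid storage and lipolysis, 16 of 21 listed genes were tested and 0 passed (2 at an unadjusted p under 0.05), with a median log2 fold change of 0.069. Plin2, the coat protein gene of lipid droplets, was at 95.9 ± 2.74 and 96.4 ± 6.20 (0.981), Lpin3, a phosphatidate phosphatase gene, at 50.2 ± 6.56 and 63.4 ± 11.2 (0.307), and Fitm2, needed for droplet formation, at 4.51 ± 0.902 and 6.02 ± 0.455 (0.311).

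**Figure D4:**
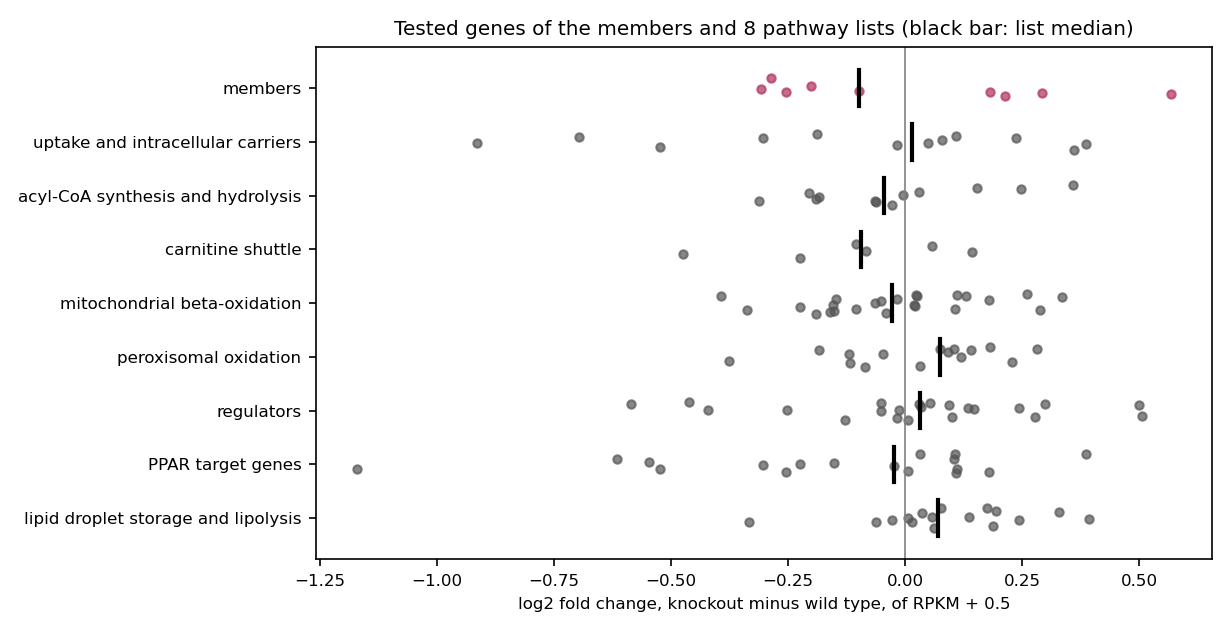
Log2 fold change (x axis, knockout minus wild type, on log2 of RPKM + 0.5) of every tested gene of the members and of 8 pathway lists, with 1 point per gene and a black bar at each list's median. List medians run from -0.098 for the members to 0.075 for peroxisomal oxidation.

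Over the 8 pathway lists, with each gene counted once, 113 genes were tested and 0 passed in limma, while 1.94% of all genes did. At an unadjusted p under 0.05 there were 17 (5 higher and 12 lower), close to the share of all genes, 15.7%. Their median log2 fold change was 0.015, beside 0.026 over all genes. In the same libraries, 16 genes that cell dissociation is known to induce had 1 call (Hspa8, higher). Their median log2 fold change was 0.195. At an unadjusted p under 0.05 there were 6 (5 higher and 1 lower), or 37.5% of the 16, beside 15.7% of all genes. Of the 11 macrophage markers found, 5, among them Csf1r, stayed under 1 RPKM everywhere. The 11 summed to 39.6 to 65.1 RPKM in wild type and 40.7 to 49.9 in knockout. Of these markers 5 were tested and 0 passed, with 2 at an unadjusted p under 0.05, both lower. The median log2 fold change of the tested ones was -0.297. The 6 erythroid markers found summed to 8.97 to 50.8 RPKM in wild type and 2.62 to 18.5 in knockout. That sum leaves out the beta-globin genes Hbb-bt and Hbb-bs, which were not found. Lymphocyte markers summed to at most 2.24 RPKM in any library.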

How the data were processed

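RNA-seq of CD31-positive, CD45-negative spleen cells gave 6 libraries, 3 per genotype. Per the labels' protocols, cDNA was made with a SMART-Seq v4 kit and libraries with Nextera XT. Without settings or order, the submitters' processing notes list mm10 as the build and STAR 2.5.2b, Subread, limma and edgeR as tools. The authors deposited RPKM for 23337 genes, and, per the file headers, group mean RPKM, log2 fold changes and p-values of their own comparison. The numbers in the column names differ from the replicate numbers of the labels. Columns were therefore assigned by genotype alone, and WT 1 or KO 2 is a column's own number.

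Each of the 17683 genes above 0 had values that were whole multiples of 1 read's worth (tolerance 0.001, or 0.01 for 4 abundant genes), with whole gene lengths, which gave reads per gene and depth. That sum is 99.5% of the library size the values imply. The filter kept genes reaching 1 RPKM in 3 or more libraries. With limma 3.58.1 (R 4.3.3), log2(RPKM + 0.5) was modelled by genotype (moderated variances, intensity trend, Benjamini-Hochberg adjustment over 11035 genes, threshold 0.05). Fold changes on this scale understate the change of low genes. The fit was tested on simulated data. Alternatives were other pseudocounts, filters, moderation, weights and scalings, voom, a replicate block and leaving out each library. No 2 replicates agreed within sampling noise, with 30.3 to 99.3 for chi-square over its degrees of freedom. Since RPKM are not counts, no count test was the main result.

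The members and gene lists were chosen with earlier results of these data known. Genes named beside the members are up to 4 called genes of each pathway list, or the 2 of smallest p where 0 were called, and Stab1, Cd36, Gpihbp1, Lpl, Cpt2, Acadm, Acadvl, Ppara, Ppard and Plin2. An item that this rule names is not reported here. Relatives of the members and markers were named after their values were seen. List entries were matched by symbol, 1 by gene ID, and 5 were not matched. Coordinates and gene overlaps came from RefSeq's GRCm38.p6 table.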

Additional observations from a re-analysis of the deposited data

How the results depend on the processing

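Of the 9 tested members, 0 passed under 15 of 17 alternatives, leaving out each library included (0 to 0 members). With library quality weights 2 passed (Slc27a3 and Acadl) and with the replicate block 1 (Tcf15). The count over all genes, 214, was 3653 with quality weights, 77 with no filter on low values, 355 with the replicate block and 48 (without KO 3) to 406 (without KO 4) when a library was left out, with 64 without KO 2 and 84 without WT 4. The block used the numbers 3 and 4 that columns of both genotypes carry. WT 1 and KO 2 each formed a block of their own. The genotype difference therefore rested on the pairs WT 3 with KO 3 and WT 4 with KO 4. Almost no scatter of a gene's own was left to measure, so the p-values leaned on the spread shared across genes. Deviations of the same-numbered pairs correlated at 0.193 and 0.193 and those of the other pairs at -0.162 to 0.094. The labels tie these column numbers to nothing. Leaving out 1 library turned the sign, far from any threshold, of Fabp4 (-0.481 to 0.019, the highest without WT 1), Slc27a4 (-0.004 without WT 1, up to 0.346), Cpt1a (-0.409 to 0.103, the highest without WT 3), Gpihbp1 (-0.021 without WT 1, up to 0.178) and Plin2 (-0.047 without KO 3 and -0.015 without WT 4, up to 0.034). Signs also turned with the replicate block for Slc27a4 (-0.022), Gpihbp1 (-0.057) and Cpt2 (0.011), with quality weights for Fabp5 (0.019) and with quantile normalization for Plin2 (-0.06). The cause was not tested. Of the genes named beside the members, Tcf4 and Cpt1c passed with the block, Tcf4 and Acbd5 without KO 4, and Fabp7, Acbd5, Acot13, Acot7, Echs1, Etfa, Scp2, Ech1, Tcf4, Ncor1, Cd36, Lpin3 and Fitm2 with quality weights. For Meox2 the intervals of counting error of several libraries did not overlap, so the spread between libraries exceeded counting error there even at these low read counts.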

Other observations

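The members differed in how tightly their libraries agreed. On the log2 scale, the spread within groups was 0.409 for Fabp4 and 0.427 for Cpt1a, wider than that of 98.6% and 98.3% of tested genes within 0.5 log2 units of their level. Acadl (0.08) and Fabp5 (0.092) were tighter than most such genes, with 17.0% and 32.2% of those genes tighter still.

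The 5 tested genes whose log2 levels followed those of Acadl most closely over the 6 libraries were Snord47 (a small nucleolar RNA, Pearson's r 0.994), Gap43 (a growth-cone protein, 0.991), Hyal3 (a hyaluronidase, 0.986), 2610035D17Rik (0.984) and Tcf7 (a T cell transcription factor, 0.981). These correlations are over libraries of 2 genotypes, describe these libraries only, and were picked as the highest of all genes tested. Of the 5, Snord47, Gap43 and 2610035D17Rik were called lower in knockout (adjusted p = 0.027, 0.0419 and 0.00202), beside 1.27% of all genes. Acadl was taken as the member of smallest p between the genotypes. Genes picked to follow it were therefore bound to lean lower in knockout, and these calls follow from that choice.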
